A study of Mus musculus with 12 samples.

Results

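Tbx21, Gata3, Bcl6, Ascl2 and Hopx encode transcription factors that direct or stabilise helper T cell lineages, and their RNA was followed in regulatory T cells (Treg) sorted from mouse tumours and spleens. The genes were found by name on the arrays, Hopx under its older name Hod. They make up 5 of the 21337 genes with a probe, and each had 1 probe. The choice was by name and not by a cut on measured values, but it was made with earlier results of these data known. The study compared 4 groups of 3 one-colour Agilent arrays. IL10+ and IL10- tumour Treg came from VERT-X C57BL/6 mice, in which EGFP reports Il10. Total tumour Treg came from FoxP3-EGFP C57BL/6 mice, in which EGFP reports Foxp3, and spleen Treg from FoxP3-EGFP mice without a tumour. The tumours were subcutaneous MC38, a mouse colon carcinoma line of the same strain, taken after 2 weeks and pooled before the sort. All groups passed a gate for CD45+ cells with low CD11b that carried CD3 and CD4. FoxP3-EGFP cells were then taken on EGFP, and VERT-X cells on CD25 and CD120b, the latter at positive to low staining. The IL10 groups and total tumour Treg thus differ in strain and in gate as well as in IL10 status, and these cannot be told apart. Ages and sexes of the mice are not given in the sources used here. Each population came from 3 experiments according to the submitters.

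Helper T cells take on fates under a few lineage factors. T-bet, encoded by Tbx21, drives the Th1 fate with its cytokine interferon gamma, GATA3 drives the Th2 fate with interleukins 4, 5 and 13, and the repressor BCL6 drives follicular helper cells (Tfh), which ASCL2 helps to start through the follicle-homing receptor Cxcr5. HOPX is a small homeodomain protein that does not bind DNA by itself, acts through partners such as SRF and histone deacetylases, and is known from long-lived Th1 cells and from induced Treg. Treg can take up the same factors, and T-bet, GATA3 and BCL6 are each known to mark Treg that act against the matching helper response.

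The promoters of the members were read from RefSeq (GRCm38.p6) as the 250 bases before each start site. All 5 members matched, with 7 promoters in all because Bcl6 and Hopx each have 2 listed. Both strands were searched for 4 motifs. The core of a T-box site, as T-bet binds it, was spelled AGGTGT. The site of GATA factors was searched as GATAA in the same way. The palindrome of STAT factors, which BCL6 sites resemble, was TTCNNNGAA. The E-box searched for ASCL2 was CAGCTG, which like the palindrome reads the same on both strands. No matches overlapped. The promoters of the 3 members called between tumour and spleen below are shown, the first of 2 for Hopx, with matches in capitals. All lie on the minus strand and run 5′ to 3′.
Bcl6, first start, chr16:23988853-23989102: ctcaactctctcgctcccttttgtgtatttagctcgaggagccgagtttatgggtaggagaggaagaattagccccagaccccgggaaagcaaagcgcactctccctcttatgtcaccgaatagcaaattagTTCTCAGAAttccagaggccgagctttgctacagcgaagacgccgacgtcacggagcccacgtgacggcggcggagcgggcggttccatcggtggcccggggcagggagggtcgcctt
Bcl6, second start, chr16:23981284-23981533: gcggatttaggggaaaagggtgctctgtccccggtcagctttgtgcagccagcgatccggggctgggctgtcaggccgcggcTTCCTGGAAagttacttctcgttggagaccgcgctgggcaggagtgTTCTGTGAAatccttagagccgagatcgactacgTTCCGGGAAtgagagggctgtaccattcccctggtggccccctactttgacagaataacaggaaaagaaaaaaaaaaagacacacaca
Tbx21, chr11:97115332-97115581: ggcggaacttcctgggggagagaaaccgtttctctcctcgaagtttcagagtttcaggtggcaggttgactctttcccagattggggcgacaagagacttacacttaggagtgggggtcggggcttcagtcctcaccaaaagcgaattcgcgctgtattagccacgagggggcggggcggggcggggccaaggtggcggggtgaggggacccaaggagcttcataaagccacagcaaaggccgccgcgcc
Hopx, first start, chr5:77115124-77115373: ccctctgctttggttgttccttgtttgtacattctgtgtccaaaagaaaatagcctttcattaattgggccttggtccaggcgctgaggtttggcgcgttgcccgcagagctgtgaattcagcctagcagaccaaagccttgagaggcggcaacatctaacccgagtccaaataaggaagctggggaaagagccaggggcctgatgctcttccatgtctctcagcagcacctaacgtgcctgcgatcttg
The palindrome TTCNNNGAA stood once in the first Bcl6 promoter, 118 bases before the start. The second Bcl6 promoter held it 3 times, at 168, 122 and 88 bases before the start. It was present in 7.02% of 32851 mouse promoters of the same length. Tbx21, Gata3 and both Hopx promoters held none of the 4 motifs, and Ascl2 held 1 T-box core, 248 bases before its start. AGGTGT was present in 11.8% of all promoters, GATAA in 22.6% and CAGCTG in 13%. A match is a run of letters and was not tested as a binding site.

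A level is the log2 processed signal minus that of the 75th percentile of its array. Differences are log2 as well, and levels of different probes are not set against each other. Between 42.1% and 65.2% of 41174 probes were well above background on an array. Correlations across features between arrays of 1 group ran from 0.927 to 0.958 in IL10+, 0.957 to 0.977 in IL10-, 0.987 to 0.989 in total tumour and 0.964 to 0.982 in spleen Treg. A test with limma (two-sided, Benjamini-Hochberg adjusted within a comparison over 15524 features, called at an adjusted p under 0.05) was fitted to all 12 arrays. Comparisons with spleen share the 3 spleen arrays, and their values are given side by side only.

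Spleen replicate 2 stood apart in the markers that define the sorted cells. Over 9 Treg markers its mean level was -0.62, against 2.44 and 2.58 in the other spleen arrays and 2.26 to 3.80 in the tumour arrays. Il2ra, which encodes CD25, ranged from -3.90 to 1.27 over the spleen arrays. Over 10 CD8 T and NK cell markers spleen replicate 2 had the highest mean of all arrays, 0.13, against -0.74 and -1.75 in the other spleen arrays. Results on spleen are therefore given with and without it. CD4 T cell markers were bright everywhere, with means from 3.79 to 5.63. The Foxp3 probe was not well above background on any FoxP3-EGFP array, at -6.36 ± 0.18 (SD, n = 3) in total tumour and -6.06 ± 0.28 (SD, n = 3) in spleen Treg, and read 4.06 ± 0.90 (SD, n = 3) in IL10- and 3.74 ± 0.97 (SD, n = 3) in IL10+ tumour Treg. It thus does not bear out the sort in the FoxP3-EGFP groups.

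Markers of cells outside the gate also separated tumour from spleen. Of all features tested, 22% were called higher and 20.3% lower in total tumour than in spleen Treg, as a background for the marker counts. Macrophage and monocyte markers were higher in total tumour than in spleen Treg in 11 of 12 (mean level 3.09 to 4.02 against 0.42 to 1.70) and fibroblast markers in 7 of 9 (1.54 to 1.92 against -3.81 to -1.76). B cell markers were lower in 9 of 9, with means from -5.00 to -4.52 in total tumour and 0.69 to 1.55 in spleen Treg, and Cd79a, Pax5, Fcer2a, Cr2, Blk and Ebf1 were not well above background on any total tumour array. The list of ILC2, mast cell and basophil markers holds mainly mast cell and basophil genes and none particular to ILC2. Of its genes 5 of 8 tested were higher, and of the CD8 T and NK cell markers 4 of 10 were lower. The last count became 2 lower and 2 higher without spleen replicate 2. Treg markers were higher in 4 and lower in 1 of 9, dendritic cell markers in 1 and 3 of 7, plasma cell markers in 1 and 2 of 6, endothelial markers in 1 and 1 of 7, and erythroid and platelet markers in 0 and 3 of 6. Epithelial markers were higher in 2 of 4, and no neutrophil marker of 4 or CD4 T cell marker of 7 was called (smallest adjusted p = 0.0553 for Csf3r and 0.123 for Cd247 by limma). Between IL10+ and IL10- tumour Treg no marker of any list was called (smallest adjusted p = 0.876 by limma, for Kit), with macrophage markers positive in 12 of 12 (median 0.42). Each array measured all RNA in its sorted sample, so a higher share of other cells and a change within Treg cannot be told apart, nor can fewer cells of a kind and less RNA per cell.

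**Figure D1:**
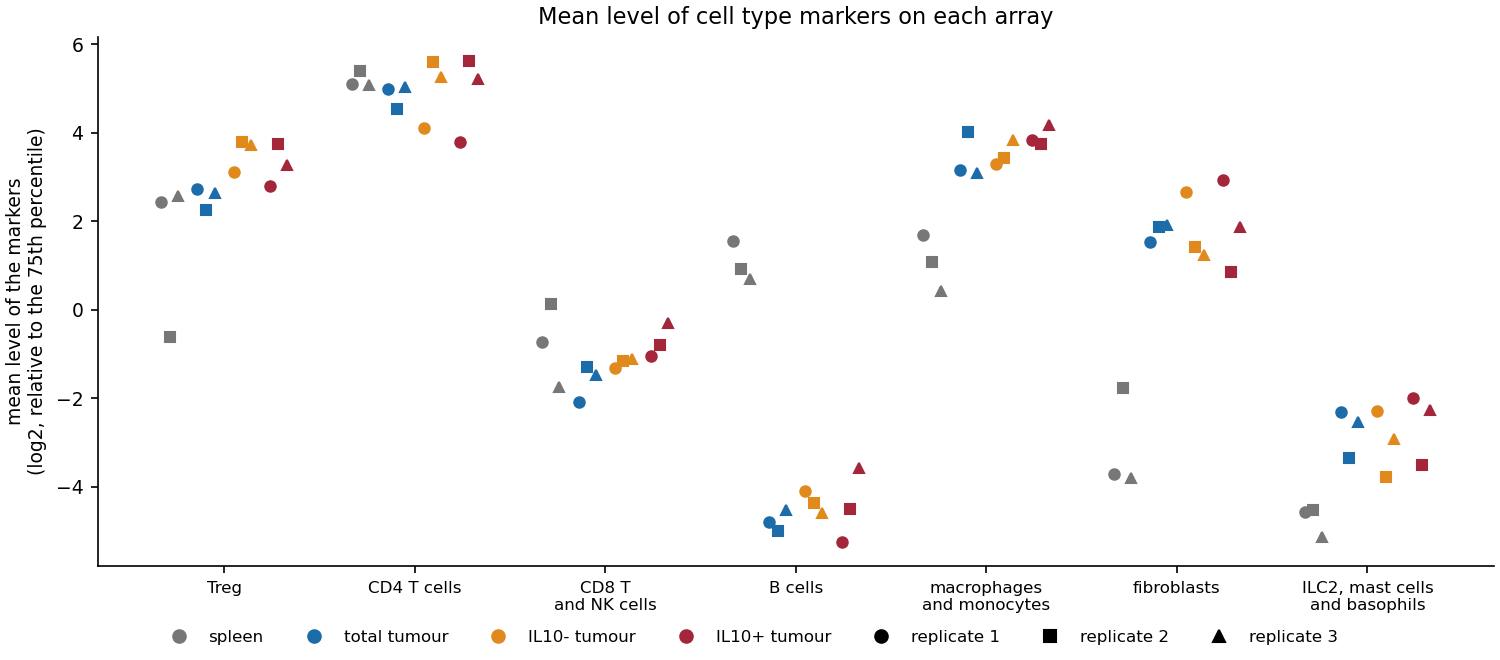
Mean level of cell type markers on each of the 12 arrays (vertical axis, log2 above the array's 75th percentile; colours are groups, symbols are replicates). Spleen replicate 2 lies at -0.62 for Treg markers, below every other array, while B cell markers are high only in the 3 spleen arrays (0.69 to 1.55) and macrophage markers are highest in the tumour arrays.

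Of the 4 members tested, 3 were called between total tumour and spleen Treg, against 42.3% of all features tested. Tbx21 and Hopx were higher in tumour, against 22% of features called higher, and Bcl6 was lower, against 20.3% called lower. Gata3 did not pass. Ascl2 was well above background on 1 of 12 arrays and was not tested. Between IL10+ and spleen Treg 2 of 4 members were called (50.9% of features), and 2 of 4 between IL10- and spleen Treg (49% of features), in each case Bcl6 lower and Hopx higher. Of all features, 24% were called higher and 26.9% lower in IL10+ than in spleen Treg, and 24.3% and 24.7% in IL10- Treg. These shares, with those for total tumour Treg, are the background of the list counts below. None of the 4 was called between IL10+ and IL10- tumour Treg, where 0.0515% of features passed, between IL10+ and total tumour Treg (0.2%) or between IL10- and total tumour Treg (0.0515%). At an unadjusted p under 0.05, limma gave 1 member in the first of these comparisons (Gata3), 0 in the second and 2 in the third (Tbx21 and Bcl6). Of the 15524 features tested, 718, 2609 and 2411 reached that unadjusted level, in the same order. A count over 4 genes cannot set the members apart from this background. Il10 differed by 4.63 between the IL10+ and IL10- groups that its reporter defined, without overlap. It was not called either (limma, adjusted p = 0.349), so a missing call does not show equal levels.

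**Figure D2:**
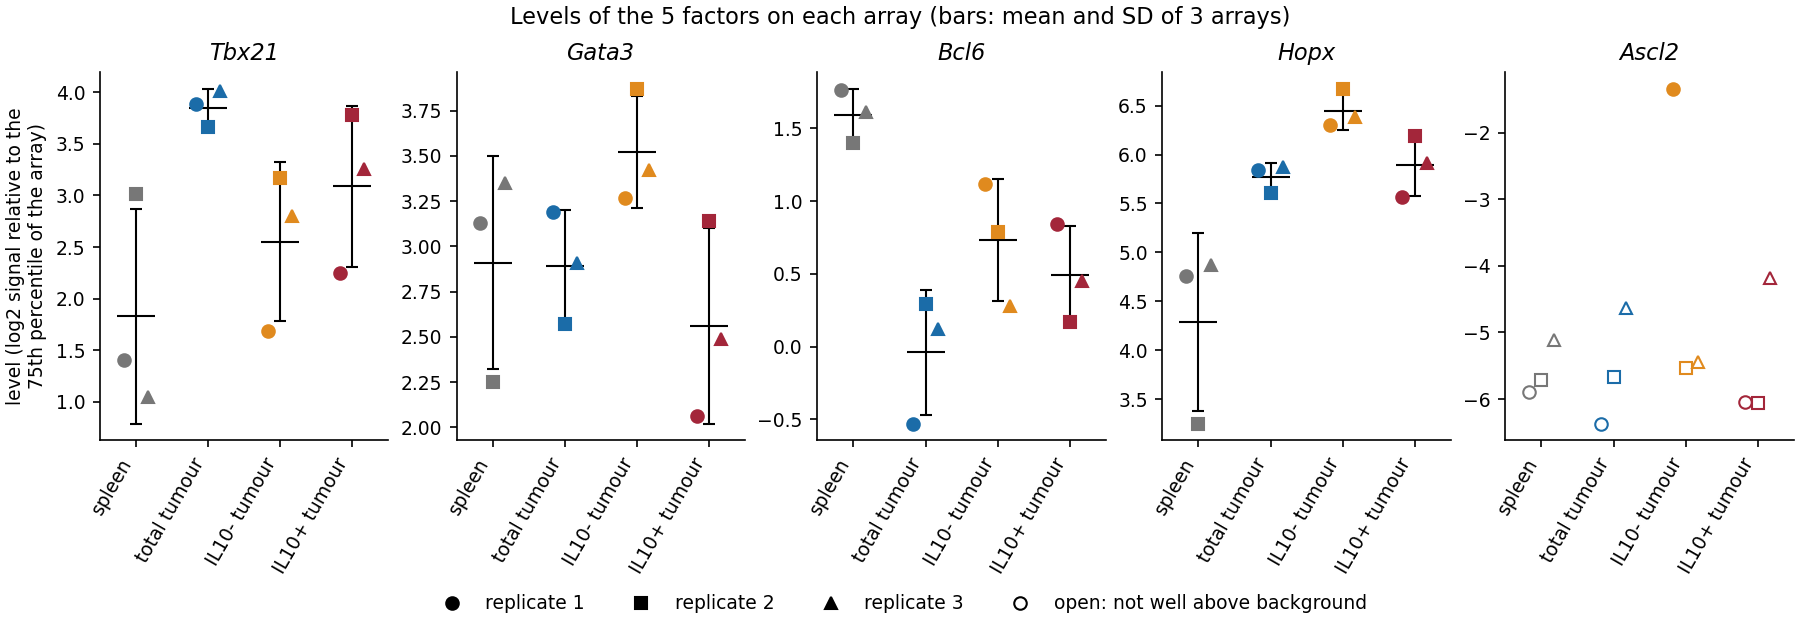
Levels of the 5 factors on each array (vertical axis, log2 above the array's 75th percentile, a separate scale for each gene; columns are groups; symbols are replicates; bars are the mean and SD of 3 arrays, not drawn for Ascl2; open symbols are not well above background). Tbx21 is tight in total tumour Treg (3.66 to 4.01) and spread out in the other groups, Bcl6 is highest in the 3 spleen arrays (1.40 to 1.76), and Ascl2 is open on every array but IL10- replicate 1.

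Tbx21 was higher in total tumour than in spleen Treg. Its probe (mm8, chromosome 11, 96914193 to 96914252, minus strand) read 3.88, 3.66 and 4.01 in total tumour Treg and 1.41, 3.01 and 1.05 in spleen Treg. All 3 total tumour arrays lay above all 3 spleen arrays, and the highest spleen value was that of replicate 2. The rise was 2.02 ± 0.57 (SE), or 4.07-fold (limma, adjusted p = 0.0167), and 2.62 without spleen replicate 2 (adjusted p = 0.00389). The IL10 groups were far more spread, at 1.69, 3.17 and 2.80 in IL10- and 2.25, 3.78 and 3.26 in IL10+ tumour Treg. Replicate 1 was the lowest array in both. Means in ascending order were 1.83 ± 1.04 (SD, n = 3) in spleen, 2.55 ± 0.77 (SD, n = 3) in IL10-, 3.09 ± 0.78 (SD, n = 3) in IL10+ and 3.85 ± 0.18 (SD, n = 3) in total tumour Treg. No neighbours in that order differed beyond their spread, and each neighbouring pair overlapped.

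Against spleen, Tbx21 stood at 1.27 ± 0.57 (SE) in IL10+ Treg (limma, adjusted p = 0.0863) and at 0.73 ± 0.57 (SE) in IL10- Treg (adjusted p = 0.310). Without spleen replicate 2 these became 1.86 (adjusted p = 0.0148) and 1.32 (adjusted p = 0.0602), so that the IL10+ group passed. Between IL10+ and IL10- tumour Treg the difference was 0.54, with a 95% interval from -0.72 to 1.81 (adjusted p = 1), and it turned to -0.63 with normexp background correction. IL10- tumour Treg stood 1.30 below total tumour Treg (difference -1.30 ± 0.57 (SE), limma, adjusted p = 0.311). The call in total tumour Treg was lost with normexp (1.71, adjusted p = 0.0691), with slide as a fixed block (2.18, adjusted p = 0.103), and without total tumour replicate 3 (1.95, adjusted p = 0.0512), spleen replicate 1 (1.82, adjusted p = 0.0561) or spleen replicate 3 (1.64, adjusted p = 0.0638). On the slide that held 1 total tumour and all 3 spleen arrays the difference was 2.18. CD8 T and NK cells also express Tbx21, and their markers were lower in 4 and higher in 0 of 10 in total tumour Treg (mean level -2.08 to -1.29, against -1.75 to 0.13 in spleen). Without spleen replicate 2, the array at 0.13, as many of these markers were called higher as lower. The part of these cells in the Tbx21 values was not tested.

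The Th1 genes that T-bet is known to drive were mostly higher in tumour too. Of 20 tested, 11 were higher and 2 lower in total tumour Treg, with a median of 1.91 against -0.01 over all features, and 13 were higher and 1 lower without spleen replicate 2 (median 2.04). Havcr2, the inhibitory receptor TIM-3 of Th1 cells, rose by 3.61 (limma, adjusted p = 2.15e-06). Ccl3, an inflammatory chemokine, rose by 6.64 (adjusted p = 1.21e-04) and was well above background on 1 of 3 spleen arrays. Ifng, the Th1 cytokine, rose by 2.37 in total tumour Treg (adjusted p = 0.0115), but stood at 0.25 (adjusted p = 0.753) in IL10+ and 0.43 (adjusted p = 0.582) in IL10- Treg. The falls were Stat4, which carries the interleukin-12 signal (-1.0, adjusted p = 0.00384), and Eomes, a T-box relative of Tbx21 (-1.69, adjusted p = 0.0427), the latter lost without spleen replicate 2 (-1.25, adjusted p = 0.147) and without 6 other arrays, each in turn. Cxcr3, the chemokine receptor most tied to T-bet, stood at 0.31 (adjusted p = 0.585). In the IL10 groups 9 of 20 were higher and 2 lower in IL10+ (median 0.79) and 8 higher and 0 lower in IL10- Treg (median 0.95). With normexp the total tumour count was 7 higher and 1 lower (median 0.84). Ccl3, Ccl4 and Ccl5 are also genes of macrophages, whose markers were higher beside them, and that part was not tested.

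Gata3 did not pass the test between tumour and spleen in any group. Its probe (mm8, chromosome 2, 9775209 to 9775268, minus strand) read 3.19, 2.57 and 2.91 in total tumour and 3.13, 2.25 and 3.35 in spleen Treg. The groups overlapped fully, with spleen replicate 2 the lowest of the 6. The difference was -0.02, with a 95% interval from -0.80 to 0.76 (limma, adjusted p = 0.977), so that a change of 2-fold in either direction was outside the interval. It was -0.35 without spleen replicate 2 (adjusted p = 0.449). IL10- tumour Treg read 3.27, 3.87 and 3.42, and IL10+ tumour Treg 2.06, 3.14 and 2.49. Every IL10- array lay above every IL10+ array. The share of all features that separate groups of 3 arrays in this way is not given here, so separation alone does not set a member apart.

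The Gata3 means were 3.52 ± 0.31 (SD, n = 3) in IL10-, 2.91 ± 0.59 (SD, n = 3) in spleen, 2.89 ± 0.31 (SD, n = 3) in total tumour and 2.56 ± 0.54 (SD, n = 3) in IL10+ tumour Treg, in descending order. Between the fractions the difference was -0.96 ± 0.35 (SE), a 1.94-fold lower mean in IL10+ Treg, with a 95% interval from -1.74 to -0.18. The interval, which is not adjusted, left out 0, and the adjusted test was not passed (limma, adjusted p = 0.983, and 0.169 to 1 over the alternatives). Its direction was the same in all 23 alternatives, from -1.96 to -0.38. As the groups did not overlap, leaving out an array could not turn it. On the slide that held 1 IL10+ and 3 IL10- arrays it was -0.38. Against spleen, Gata3 stood at 0.61 (adjusted p = 0.172) in IL10- and -0.35 (adjusted p = 0.433) in IL10+ Treg, the latter called with normexp (-1.49, adjusted p = 0.0206). Of all features tested, 96.1% differed by less between the fractions.

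Th2 genes went both ways. Of 19 on the list, 15 were tested and 5 were higher and 2 lower in total tumour than in spleen Treg, with a median of 0.72 (0.43 without spleen replicate 2). Nfil3, a transcription factor induced by interleukin-4, rose by 3.86 (limma, adjusted p = 4.94e-04) and Areg, a growth factor of tissue repair, by 5.52 (adjusted p = 0.00272). Their rises were 3.06 and 3.93 without spleen replicate 2. Maf, which drives Il4 and Il10, rose by 1.82 (adjusted p = 0.00670). Both falls were of the interleukin-4 signal, its receptor chain Il4ra (-0.84, adjusted p = 0.0131) and Stat6 (-0.71, adjusted p = 0.0100). Of the Th2 cytokines Il4 stood at -1.26 (adjusted p = 0.356), and Il5 and Il9 were not above the filter. Il13 was not well above background on any total tumour or spleen array, but it was on 1 of 3 IL10+ arrays and on all 3 IL10- arrays. In IL10- Treg it was at least 3.48-fold higher than in spleen (means of -2.25 and -5.21, adjusted p = 0.00127). The IL10- arrays shared 1 slide, which held no spleen array. Il13 passed the filter only through the IL10- arrays, where it was high, so the filter favoured this call. Its difference between the fractions was -1.49 (adjusted p = 0.978). Such bounds set the bright group's mean against, on each dim array, the higher of the probe's own signal and the lowest signal well above background. Of the 15 tested, 7 were higher and 1 lower in IL10+ than in spleen Treg, against 24% and 26.9% of all features. In IL10- Treg 5 were higher and 1 lower, against 24.3% and 24.7%. Between the fractions the smallest adjusted p by limma was 0.978 (Il13). Mast cell and basophil markers, of cells that express GATA factors and some of these cytokines, rose beside them (mean level -3.36 to -2.31 in total tumour, -5.14 to -4.52 in spleen Treg). The part of these cells was not tested.

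Bcl6 was lower in all 3 tumour groups than in spleen. Its probe (mm8, chromosome 16, 23880423 to 23880482, minus strand) read 1.76, 1.40 and 1.61 in spleen Treg and -0.53, 0.29 and 0.12 in total tumour Treg. IL10- tumour Treg read 1.12, 0.79 and 0.28, and IL10+ tumour Treg 0.84, 0.17 and 0.45. All 3 spleen arrays lay above all 9 tumour arrays. Spleen Treg were also the tightest group, at 1.59 ± 0.18 (SD, n = 3), followed in level by IL10- (0.73 ± 0.42, SD, n = 3), IL10+ (0.49 ± 0.34, SD, n = 3) and total tumour Treg (-0.04 ± 0.43, SD, n = 3). The tumour groups overlapped with their neighbours in this order.

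In total tumour Treg Bcl6 fell by 1.63 ± 0.28 (SE), or 3.1-fold (limma, adjusted p = 0.00132). This call held in all 23 alternatives, from -1.80 to -1.39, with a highest adjusted p of 0.0458 when slide was a fixed block. Without spleen replicate 2 it was -1.73 (adjusted p = 0.00349), and on the slide with 1 total tumour and 3 spleen arrays it was -1.47. IL10+ Treg stood at -1.10 ± 0.28 (SE) (adjusted p = 0.00853), or -1.20 without spleen replicate 2 (adjusted p = 0.0151), and IL10- Treg at -0.86 ± 0.28 (SE) (adjusted p = 0.0281; -0.96 and adjusted p = 0.0400 without that array). With slide as a fixed block both lost the call, at -0.51 (adjusted p = 0.586) and 0.04 (adjusted p = 0.973). No slide held both spleen and IL10 arrays, so within a slide neither could be read. The IL10- call was also lost with normexp (-0.79, adjusted p = 0.122), with no filter on dim probes (-0.86, adjusted p = 0.0726), with slide as a random block (-0.79, adjusted p = 0.0806), and without IL10- replicate 2 (-0.89) or 3 (-0.64) or spleen replicate 1 (-0.78) or 3 (-0.85). Between the fractions Bcl6 differed by -0.24, with a 95% interval from -0.87 to 0.39. B cells also express Bcl6, and all 9 of their markers were lower in total tumour, IL10+ and IL10- than in spleen Treg. Their part in the fall was not tested.

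**Figure D3:**
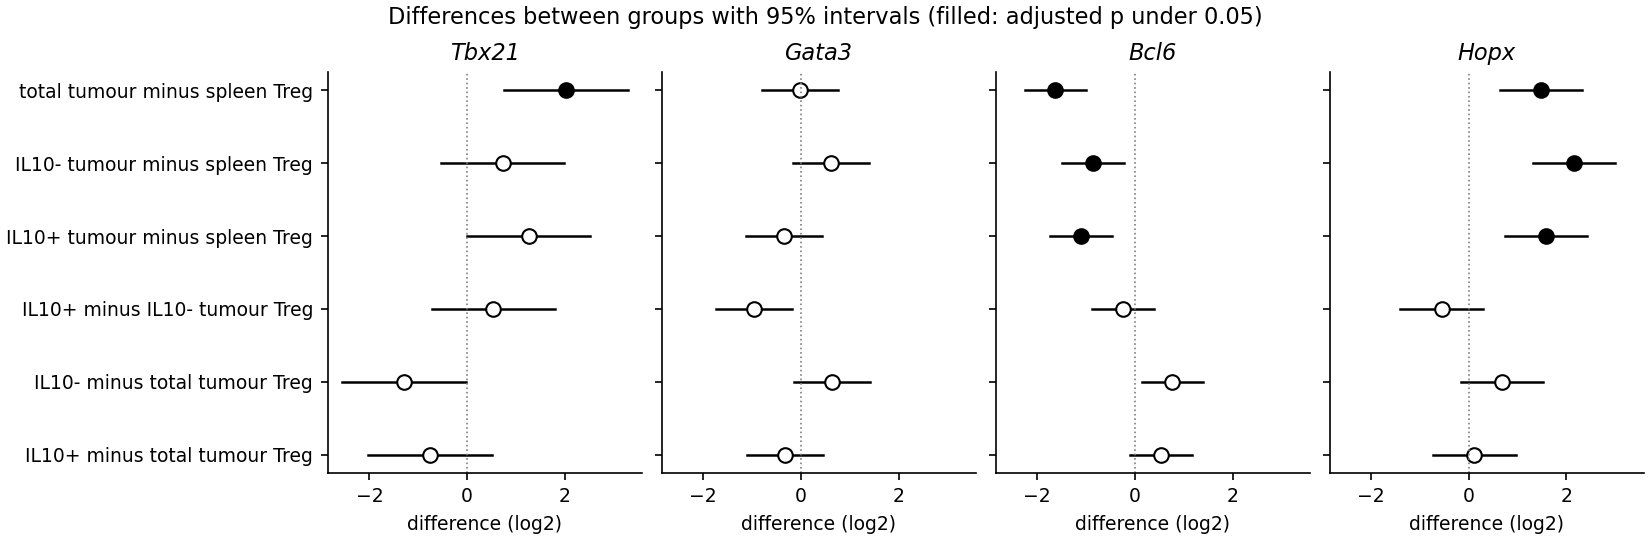
Differences of the 4 tested members in the 6 comparisons (horizontal axis, log2; points are estimates of limma, lines 95% intervals, filled points an adjusted p under 0.05). Bcl6 lies left of 0 in the 3 comparisons with spleen (-1.63, -0.86 and -1.10) and Hopx right of it (1.48, 2.15 and 1.59), while no point is filled in the 3 comparisons among tumour groups.

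Genes tied to Tfh cells were mostly lower in tumour. The list is not only of genes that BCL6 and ASCL2 help to set up, and it also holds Tcf7 and Il6ra, which act upstream of Bcl6. Of 20 on the list, 17 were tested, with 11 lower and 3 higher in total tumour Treg (median -1.81), 13 and 3 in IL10+ (median -2.63), and 11 and 3 in IL10- Treg (median -2.38). The total tumour count was 12 lower and 3 higher without spleen replicate 2 (median -1.93). Pou2af1, a co-activator with a large role in B cells, fell by 6.19 on the log2 scale (limma, adjusted p = 2.45e-06) and Tcf7, a factor upstream of Bcl6 in Tfh cells, fell by 5.78 (adjusted p = 6.58e-06). Cxcr5, the follicle-homing receptor that ASCL2 induces, fell by 4.97 (adjusted p = 6.84e-06). The inhibitory receptor Btla fell by 3.15 (adjusted p = 1.74e-06). The rises were Pdcd1, encoding PD-1 (1.82, adjusted p = 0.00932, and 1.15 without spleen replicate 2), the co-stimulatory receptor Icos (2.34, adjusted p = 0.00117) and the secreted protein Angptl2 (3.32, adjusted p = 4.09e-05). PD-1 and ICOS are also receptors of activated Treg. Il21 and Cd40lg were not above the filter, and Tox2 had no named probe. Pou2af1, Cxcr5 and Btla are also genes of B cells, whose markers fell beside them, and that part was not tested.

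Genes that BCL6 is known to oppose did not move as a block. Of 12 tested, 4 were higher and 5 lower in total tumour than in spleen Treg (median -0.41), against 22% and 20.3% of all features. Prdm1, which encodes the BCL6 antagonist Blimp-1, rose by 2.03 (limma, adjusted p = 0.00502; 1.38 without spleen replicate 2) and Runx2 rose by 3.15 (adjusted p = 6.49e-05). Id2, an inhibitor of E proteins, rose by 2.03 (adjusted p = 0.00518). S1pr1, which guides lymphocytes out of lymphoid organs, fell by 2.18 (adjusted p = 0.00332) and the survival receptor Il7r by 1.37 (adjusted p = 0.00499). The count was 3 higher and 4 lower without spleen replicate 2. In IL10+ Treg 3 were higher and 6 lower than in spleen, against 24% and 26.9% of all features. In IL10- Treg it was 3 and 3, against 24.3% and 24.7%.

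Between IL10+ and IL10- tumour Treg 1 Tfh gene and 1 Th1 gene were called, both lower in IL10+ Treg. Btla read -3.05 ± 0.23 (SD, n = 3) in IL10+ and -1.19 ± 0.15 (SD, n = 3) in IL10- Treg and differed by -1.85 (limma, adjusted p = 0.00814). With normexp its difference was -0.11 (adjusted p = 0.865), and the call was lost without IL10- replicate 2 (-1.89, adjusted p = 0.0614). Il18r1, a T-bet target that encodes part of the receptor for interleukin-18, read 0.60 ± 0.36 (SD, n = 3) and 2.44 ± 0.21 (SD, n = 3) and differed by -1.84 (adjusted p = 0.0144). Its call was lost without IL10+ replicate 1 (-1.69) or 3 (-1.78) or IL10- replicate 2 (-1.76) or 3 (-1.79). Both calls were lost with slide as a fixed block and with only these 2 groups in the fit. In the other 6 programme lists the smallest adjusted p was that of Ccr6, a chemokine receptor, at 0.138 (difference -4.59). It passed without spleen replicate 2 (adjusted p = 0.0340), as did Ccr7 (-2.17, adjusted p = 0.0307) and the Th1 receptor chain Il18rap (-1.72, adjusted p = 0.0392).

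**Figure D4:**
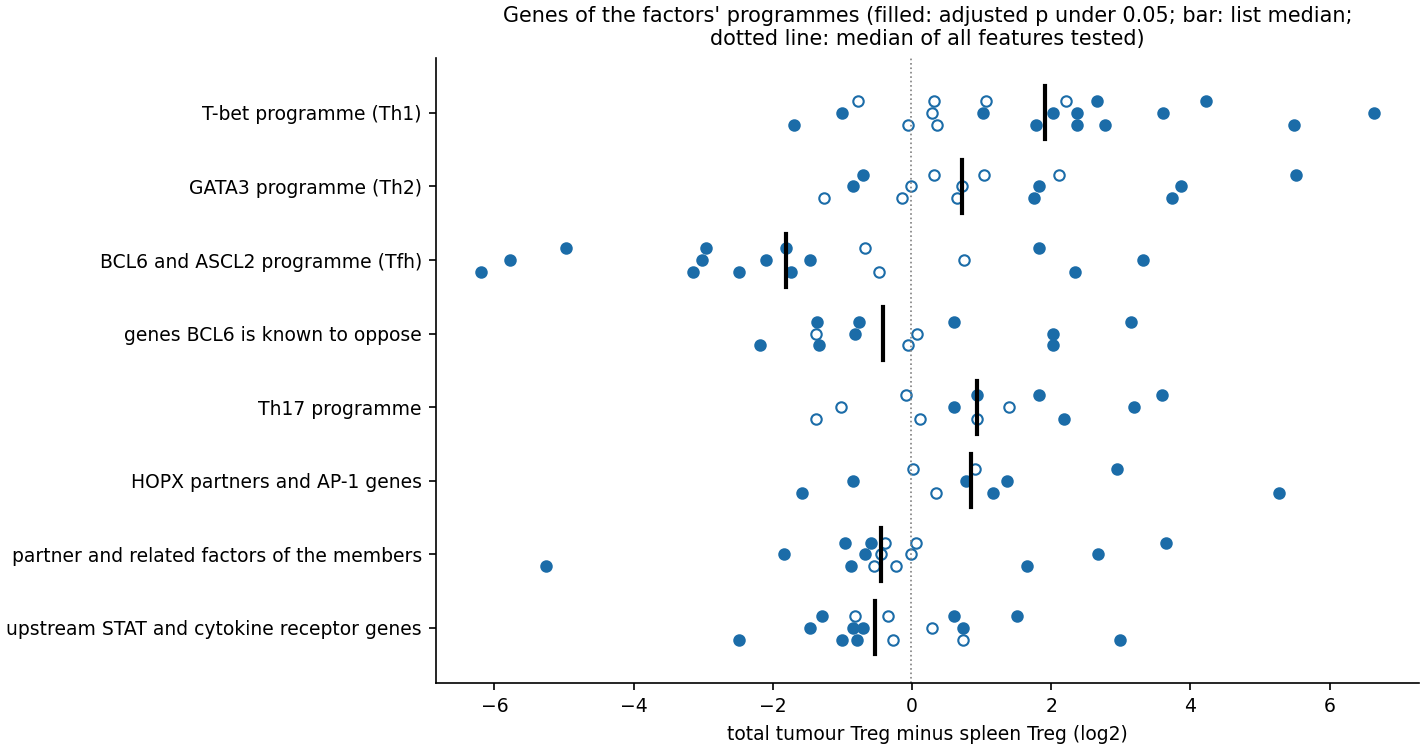
Differences between total tumour and spleen Treg (horizontal axis, log2) for the tested genes of the 8 programme lists, one point per gene, filled at an adjusted p under 0.05, with a bar at the median of the list and a dotted line at the median of all features (-0.01). Th1 genes lie mostly to the right (11 higher, 2 lower) and Tfh genes to the left (11 lower, 3 higher).

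Ascl2 was at background almost everywhere. Its probe (mm8, chromosome 7, 142777924 to 142777983, minus strand) was well above background on IL10- replicate 1 alone, at -1.34, the array with the most probes above background (65.2%). The other IL10- arrays read -5.54 and -5.45. Among the remaining groups it read -6.04, -6.06 and -4.18 in IL10+, -6.37, -5.67 and -4.63 in total tumour and -5.89, -5.72 and -5.12 in spleen Treg. The groups overlapped. The probe was not well above background on these 11 arrays, where its levels are bounds. With no filter on dim probes Ascl2 was fitted and not called in any of the 6 comparisons, with adjusted p from 0.414 to 1 by limma.

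Hopx was higher in every tumour group than in spleen. Its probe (mm8, chromosome 5, 78162210 to 78162269, minus strand) read 6.30, 6.67 and 6.38 in IL10-, 5.57, 6.19 and 5.91 in IL10+ and 5.84, 5.61 and 5.87 in total tumour Treg, against 4.76, 3.25 and 4.87 in spleen Treg. All 9 tumour arrays lay above all 3 spleen arrays, and spleen replicate 2 was the lowest array. The means were 6.45 ± 0.20 (SD, n = 3) in IL10-, 5.89 ± 0.31 (SD, n = 3) in IL10+, 5.77 ± 0.14 (SD, n = 3) in total tumour and 4.29 ± 0.91 (SD, n = 3) in spleen Treg. IL10+ and total tumour Treg overlapped, while IL10- Treg lay above both.

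Against spleen, Hopx rose by 2.15 ± 0.38 (SE), or 4.45-fold, in IL10- Treg (limma, adjusted p = 0.00113). It rose by 1.59 ± 0.38 (SE), or 3.02-fold, in IL10+ Treg (adjusted p = 0.00570) and by 1.48 ± 0.38 (SE), or 2.79-fold, in total tumour Treg (adjusted p = 0.0107). Spleen replicate 2 carried part of the size. Without it the rises were 1.63 (adjusted p = 3.68e-04), 1.07 (adjusted p = 0.00303) and 0.96 (adjusted p = 0.00715), all still called. With slide as a fixed block no call held, at 1.68 (adjusted p = 0.326), 1.42 (adjusted p = 0.298) and 1.58 (adjusted p = 0.107), and with normexp the IL10+ (0.28, adjusted p = 0.700) and total tumour calls (1.23, adjusted p = 0.227) were lost. On the slide with 1 total tumour and 3 spleen arrays the difference was 1.58. Between IL10+ and IL10- Treg Hopx differed by -0.56, with a 95% interval from -1.40 to 0.28 (adjusted p = 1). Between IL10+ and total tumour Treg it differed by 0.11, which turned to -0.95 with normexp, -0.16 with slide as a fixed block and -0.03 without IL10+ replicate 2.

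Genes of AP-1, whose output HOPX is known to dampen in Treg, and partners of HOPX split by kind. Of 10 tested, 5 were higher and 2 lower in total tumour than in spleen Treg (median 0.85), all 5 rises being AP-1 genes and both falls partners. Fosl1 was not well above background in spleen Treg and was at least 16.2-fold higher in total tumour Treg (means of -0.03 and -5.32, limma adjusted p = 4.17e-06). Fosl2 rose by 2.94 (adjusted p = 6.75e-05). Epc1, which links HOPX to chromatin, fell by 1.58 (adjusted p = 1.55e-04), but by the mean of all its probes stood at -0.28 (adjusted p = 0.302). The partner Srf fell by 0.85 (adjusted p = 0.0250; 0.0564 without spleen replicate 2). Hdac2 stood at 0.02. The count of rises was 2 without total tumour replicate 1, 3 without spleen replicate 2 or 3, and 2 with normexp, Fosl1 and Fosl2 passing throughout. Fos, Jun and Junb were the calls that were lost among these.

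Relatives and partners of the members went both ways. Of 17 on the list 15 were tested, 3 higher and 6 lower in total tumour than in spleen Treg (median -0.44), against 22% and 20.3% of all features. Gata1, the erythroid relative of Gata3, stayed near background in total tumour Treg, at least 24.8-fold below spleen (means of -5.15 and 0.11, limma adjusted p = 7.89e-05), or -2.03 with normexp (adjusted p = 0.140). Gata1 was well above background on 2 tumour arrays, both IL10-, and passed the filter only with the spleen arrays, so the filter favoured this call. Gata2, the relative found in mast cells and progenitors, rose by 3.65 (adjusted p = 4.91e-04) and was well above background on 1 of 3 spleen arrays. Tbx6, a T-box relative of Tbx21, fell by 1.84 (adjusted p = 0.00506). Erythroid and platelet markers were lower in 3 of 6 beside Gata1, and mast cell and basophil markers higher in 5 of 8 beside Gata2, which is itself on that list and 1 of the 5. Their part was not tested.

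Upstream of the members, STAT factors and cytokine receptors were called in both directions. Of 16 tested, 4 were higher and 7 lower in total tumour than in spleen Treg (median -0.53), against 22% and 20.3% of all features. Rbpj, the Notch effector that can act on Gata3, rose by 2.99 (limma, adjusted p = 3.81e-05). Il6ra, a receptor chain upstream of Bcl6, fell by 2.49 (adjusted p = 9.53e-04) and Ifngr2, a chain of the interferon gamma receptor upstream of Tbx21, fell by 1.29 (adjusted p = 6.52e-04). Stat5a, which opposes Bcl6 and supports Gata3, stood at -0.34 (adjusted p = 0.294). In IL10+ Treg 2 were higher and 6 lower than in spleen, against 24% and 26.9% of all features. In IL10- Treg it was 3 and 5, against 24.3% and 24.7%.

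Over the 12 arrays the genes with a pattern most like that of each member were taken from 12485 named features by Pearson r, as a description of arrays that share slides and groups. For Tbx21 they were Sdcbp (r = 0.956), Ccl5 (0.933) and Serpina3f (0.933), and for Gata3 Stat5a (0.903), Vps45 (0.901) and Zc3h12d (0.896). Bcl6 was nearest to Eid2 (0.964), Adat1 (0.954) and Pdcd11 (0.939), and Hopx to Ier5l (0.988), Pdcd1 (0.978) and Aldoc (0.978). Ccl5 is a Th1 chemokine and Pdcd1 encodes PD-1. Without spleen replicate 2 the r of these 12 genes lay between 0.871 and 0.980 over 11 arrays. Both sets of values include the arrays on which the genes were picked.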

How the data were processed

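RNA of sorted mouse Treg was read on 12 one-colour arrays. The scanner files hold deposited spot intensity, background-subtracted within an array by Agilent Feature Extraction 9.5.3.1, with probes placed on mm8, per the file headers. The labels describe biotin-labelled cRNA, whereas the headers describe a single-channel Agilent scan, and this was not settled. The deposited series value table is on a log10 scale, as its correlation with log10 intensity shows (0.995 to 1.00 per array), with every median at 1.33 and no centring by gene, and how it was normalized is not stated by the labels or headers. It served as an alternative.

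Control spots and spots flagged as outliers were left out, spots of a probe were averaged on the log2 scale, and the 75th percentile of the array was subtracted. A gene was its brightest probe. Names came from the files and RefSeq (GRCm38.p6), used for names and promoters. Exons were not analysed here. Features well above background on at least 3 arrays (15524) entered limma 3.58.1 (R 4.3.3, statmod 1.5.0), with all 12 arrays and 6 comparisons. The steps were tested on simulated data. Figures used Python 3.11.15 with matplotlib 3.10.9. The number of arrays limits the precision, and p-values measure only the spread between these samples.

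The members, the 8 programme lists and the 13 marker lists were chosen with earlier results of these data known. Named genes are the members, for each member the 3 genes with the highest r, from each programme list the 3 with the smallest p between total tumour and spleen Treg and the 2 with the smallest p between IL10+ and IL10- Treg, from each marker list the 2 brightest, and Il10, Foxp3, Il2ra and Tnfrsf1b where a result turns on them. Other genes of the lists that are named were chosen after their values were seen. Alternatives were normexp background correction (offset 50), quantile normalization, the deposited table, other filters (none, or 6 arrays), the mean of a gene's probes, array weights, slide as a fixed or random block, the replicate number as a block, only the 2 groups compared, and leaving out each of 12 arrays. Some genes of these lists enter the counts but are not reported here by name.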

Additional observations from a re-analysis of the deposited data

How the results depend on the processing

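Over 23 alternatives, Bcl6 in total tumour against spleen Treg kept its call in all 23, Hopx in 21 and Tbx21 in 18. Bcl6 against spleen kept it in 22 in IL10+ and 15 in IL10- Treg, and Hopx in 21 and 22. No member was called between tumour groups in any.

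With normexp background correction Tbx21 stood at -0.63 between the fractions, 1.71 in total tumour and -0.01 in IL10+ against spleen, Gata3 at -1.49 in IL10+ against spleen, Bcl6 at -0.79 in IL10- against spleen, and Hopx at 1.23 and 0.28 in total tumour and IL10+ against spleen and -0.95 in IL10+ against total tumour Treg. Genes called were then 3 between the fractions, 1865, 5185 and 2245 in total tumour, IL10+ and IL10- against spleen, and 1 and 3 in IL10+ and IL10- against total tumour Treg. With slide as a fixed block Tbx21 stood at 2.18 in total tumour and -0.56 in IL10- against spleen, Gata3 at 0.01 and -0.43 in the same pair and -0.44 in IL10- against total tumour, Bcl6 at -0.51 and 0.04 in IL10+ and IL10- against spleen, and Hopx at 1.58, 1.42 and 1.68 in total tumour, IL10+ and IL10- against spleen and -0.16 in IL10+ against total tumour Treg. Genes called were 0 between the fractions (635 at an unadjusted p under 0.05 by limma, 8 in the main setting), 3383, 2392 and 1205 against spleen, and 3 and 0 (1449 unadjusted) against total tumour Treg. With slide as a random block Gata3 stood at 0.03 in total tumour and Bcl6 at -0.79 in IL10- against spleen, and 2 genes were called in IL10- against total tumour Treg.

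Array weights raised Tbx21 against spleen to 1.97 in IL10+ and 1.47 in IL10- Treg, both called, and gave 2 genes between the fractions and 418 and 2604 in IL10+ and IL10- against total tumour Treg. With no filter on dim probes Bcl6 in IL10- against spleen (-0.86) lost its call, and each comparison among tumour groups gave 2 genes. In IL10+ and IL10- against total tumour Treg, where the main counts were 31 and 8, quantile normalization gave 16 and 16, the deposited values 14 and 14, the filter at 6 arrays 58 and 97, and only the groups compared 2 and 4, while the mean of a gene's probes gave 25 in the second. With only the groups compared 0 genes passed between the fractions (450 unadjusted by limma). The share of calls that were higher went from 12.5% to 0% with normexp between the fractions, from 35.5% to 0% in IL10+ against total tumour, and from 62.5% to 37.5% (quantile), 35.7% (deposited values) and 33.3% (normexp) in IL10- against total tumour Treg. The median of all features moved to -0.11 with quantile normalization and -0.13 with the deposited values in IL10+ against spleen, and to -0.32 with no filter in total tumour against spleen.

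With the replicate block Tbx21 in IL10+ against spleen passed (1.27, adjusted p = 0.0442), and 3, 2 and 2 genes were called between the fractions and in IL10+ and IL10- against total tumour Treg. It changed no other call of a member. Same-numbered arrays deviated together with r = 0.414, 0.431 and -0.236 between the fractions, and by -0.0191, 0.0820 and 1.59e-04 in total tumour and spleen Treg. Differently numbered arrays of the fractions ran from -0.571 to 0.301, so numbers 1 and 2 ran together there and number 3 did not. The fits between the fractions were left unpaired, and a paired fit of the fractions alone was not run. Taken by number, each IL10+ array read higher for Tbx21 and lower for Gata3 than its IL10- counterpart.

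Leaving out 1 array moved Tbx21 between 1.64 and 2.62 in total tumour and between 0.88 and 1.86 in IL10+ against spleen (called without spleen replicate 2 or IL10+ replicate 1), Gata3 between -0.35 and 0.21 in total tumour against spleen, Bcl6 between -1.06 and -0.64 in IL10- against spleen and Hopx between -0.03 and 0.27 in IL10+ against total tumour Treg. Genes called ran from 0 (without IL10- replicate 2, 413 unadjusted by limma) to 18 (without spleen replicate 2) between the fractions, from 2 to 489 (without IL10+ replicate 1) in IL10+ and from 2 to 186 (without the same array) in IL10- against total tumour Treg. The cause of these changes was not tested. The 3 arrays of each group limit the precision, Ascl2 was at background, and the 75th percentile of signal ran from 92.3 (IL10+ replicate 3) to 606 (IL10+ replicate 1).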

Other observations

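The Th17 programme, of a helper lineage with no factor among the members, was higher in part in tumour Treg. Of 14 genes on the list 12 were tested, with 6 higher and 0 lower in total tumour than in spleen Treg (median 0.94), and 5 higher and 1 lower without spleen replicate 2 (median 0.57). Rora, a nuclear receptor gene expressed in Th17 cells, rose by 2.18 (limma, adjusted p = 1.68e-04), and Ltb4r1, a leukotriene receptor, rose by 3.59 (adjusted p = 0.00132). Il17a, named after its value was seen, was not well above background on any spleen array (mean -5.67). Against these arrays it was at least 2.96-fold higher in total tumour (mean -2.48, adjusted p = 0.0103), 2.20-fold in IL10- (mean -2.91, adjusted p = 0.0173) and 1.71-fold in IL10+ Treg (mean -3.28, adjusted p = 0.0308), where it was well above background on 2 of 3 arrays. The Il17a call in total tumour Treg was lost with normexp (1.04, adjusted p = 0.460) and with slide as a fixed block (3.05, adjusted p = 0.106). Between IL10+ and IL10- tumour Treg the smallest adjusted p of the list was 0.138 by limma, for Ccr6.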
